A study of Mus musculus with 4 samples.

Results

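The activity-regulated immediate early genes Fos, Fosb, Junb, Arc, Npas4, Nr4a1, Nr4a3, Egr1, Homer1 and Nptx2 were followed in single nuclei of the mouse hippocampus. These 10 genes were picked by name from 56748 genes in the matrices, and all 10 were found. The mice were male, stress was repeated social defeat (RSD), controls had none, and the tissue was taken 14 h after the defeats ended. In the diet experiment, C57BL/6 mice received vehicle chow or chow with PLX5622, a CSF1R antagonist that depletes microglia. In the genotype experiment, IL-1R1+/+ mice without Cre (labelled WT) were set against nIL-1R1-/- mice (labelled KO), in which Cre driven by Vglut2 (Slc17a6) deletes the interleukin-1 receptor from glutamatergic neurons. This gave 8 groups, Control-Vehicle, Stress-Vehicle, Control-PLX5622, Stress-PLX5622, Con-IL-1R1+/+, Stress-IL-1R1+/+, Con-nIL-1R1-/- and Stress-nIL-1R1-/-. Each group was 1 pool of 3 mice, so a group had no biological replicate. Stress could be tested only over pairs of pools that share a diet or genotype, all 4 pairs in the main fit, and p-values measure the spread between these pools.

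Immediate early genes are transcribed within minutes of synaptic activity from factors already present in the cell, such as CREB and SRF, without new protein. Fos, Fosb and Junb encode subunits of the AP-1 transcription factor, Egr1 a zinc finger factor, Npas4 a factor that depends on calcium entry, and Nr4a1 and Nr4a3 orphan nuclear receptors. Arc, Homer1 and Nptx2 encode proteins that act at the synapse itself. In the hippocampus these genes are used to mark neurons recruited by experience, and granule cells of the dentate gyrus (DG) are known for sparse recruitment. Their transcripts are short lived, so that nuclei taken many hours after a stimulus report ongoing rather than peak transcription.

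A total of 56834 nuclei passed the filter, 5858 to 8474 in a pool, and no cell barcode was shared between pools. Depth differed widely between pools. Median UMIs per nucleus ranged from 598 in Control-PLX5622 to 5012 in Con-nIL-1R1-/-. Nuclei were placed in classes by marker genes, giving 8744 nuclei called DG-like, 6721 called CA1-like, 6805 called CA2/3-like and 6426 called inhibitory neuron-like (INH), and 1943 oligodendrocyte-like nuclei served as background. The summed DG markers stood at 4149 CPM (UMIs per 1000000 UMIs of the class and pool) in DG-like nuclei and at 321 to 763 in the other neurons, but at 5145 in oligodendrocyte-like nuclei, so this list did not separate these 2 classes. The oligodendrocyte markers did, with 15381 CPM against 244 in DG-like nuclei. CA1 markers stood at 1029 CPM in CA1-like nuclei, beside 1068 of subicular and cortical and 1734 of medium spiny markers. CA2/3 markers stood at 894 CPM in CA2/3-like nuclei, beside 2759 of subicular and cortical markers. Of the CA2/3-like nuclei, 1841 came from a single cluster with a median depth 3.08 times that of their pools. Il1r1 in DG-like nuclei was at 11.4 CPM in Con-nIL-1R1-/- and 9.14 in Stress-nIL-1R1-/-, and at 29.2 to 84.8 in the other 6 pools. Microglia-like nuclei numbered 0 and 3 in the PLX5622 pools and 50 to 137 in the others.

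The loci are given on GRCm39 with GENCODE vM39. Fos (ENSMUSG00000021250) lies at chr12:85520658-85524047 on the plus strand, Fosb (ENSMUSG00000003545) at chr7:19036621-19043976 on the minus strand and Junb (ENSMUSG00000052837) at chr8:85701113-85705359 on the minus strand. Arc (ENSMUSG00000022602) lies at chr15:74540932-74544419 on the minus strand and Npas4 (ENSMUSG00000045903) at chr19:5034382-5040344 on the minus strand. Nr4a1 (ENSMUSG00000023034) lies at chr15:101151980-101172681 and Nr4a3 (ENSMUSG00000028341) at chr4:48045153-48086447, both on the plus strand, and Egr1 is ENSMUSG00000038418. Homer1 (ENSMUSG00000007617) lies at chr13:93436143-93541637 and Nptx2 (ENSMUSG00000059991) at chr5:144482692-144500381, both on the plus strand. The genes span 3.39 kb (Fos) to 105.495 kb (Homer1), and nuclear RNA holds introns, so long genes can gather more UMIs. Junb overlaps 2 annotated genes, Prdx2 among them, Nr4a1 overlaps 3, Nr4a3 1 and Homer1 3, and their reads may be shared. Homer1 counts are of the whole gene, so the short activity-regulated isoform Homer1a could not be told apart from the constitutive ones.

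The promoters of 8 members were read for the sites of the factors named above, because these factors couple activity to transcription. CREB binds the cyclic AMP response element (CRE), TGACGTCA, and also its half-site, TGACG, which reads CGTCA on the other strand. The half-site was searched on both strands in the 250 bases before the start of the canonical GENCODE transcript, which for Junb, Nr4a1 and Homer1 lies inside the span of the gene given above, and every full CRE also holds half-sites. The 3 sequences below are of members on which the results turn, written 5′ to 3′ in the direction of the gene, with half-sites in capitals.
Fos, chr12:85520408-85520657, plus strand: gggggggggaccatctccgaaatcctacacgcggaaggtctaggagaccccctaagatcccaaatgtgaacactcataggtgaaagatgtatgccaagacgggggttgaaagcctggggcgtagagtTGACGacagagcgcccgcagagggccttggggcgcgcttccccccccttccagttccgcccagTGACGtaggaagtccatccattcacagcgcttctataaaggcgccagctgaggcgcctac
Nr4a1, chr15:101164410-101164659, plus strand: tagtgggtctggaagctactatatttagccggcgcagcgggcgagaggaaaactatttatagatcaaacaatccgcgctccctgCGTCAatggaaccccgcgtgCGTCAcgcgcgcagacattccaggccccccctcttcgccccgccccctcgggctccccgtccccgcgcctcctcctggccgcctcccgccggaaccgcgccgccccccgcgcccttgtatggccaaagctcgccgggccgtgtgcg
Nr4a3, chr4:48044903-48045152, plus strand: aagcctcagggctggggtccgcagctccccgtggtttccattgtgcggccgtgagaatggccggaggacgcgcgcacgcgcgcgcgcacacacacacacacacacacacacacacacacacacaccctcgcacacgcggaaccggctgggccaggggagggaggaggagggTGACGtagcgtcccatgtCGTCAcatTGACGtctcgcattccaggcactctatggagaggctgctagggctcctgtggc
Half-sites stood in 6 of 8 members searched, against 18.03% of 21770 promoters of the same length. They began 123 and 60 bases before the start in Fos, 166 and 146 in Nr4a1, and 79, 61 and 53 in Nr4a3. Fosb held half-sites at 249 and 54 bases, Junb at 136 and Nptx2 at 100. None was found in this window of Arc or Homer1. Within these 250 bases the full CRE was in 0 of 8 members and 1.69% of all promoters. An exact CArG box of SRF was in 0 of 8 and 1.40%. Sites further from the start or with other letters were not searched. A match here is a string of letters, not a measured binding site.

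Across classes, CA1-like nuclei held the highest mean CPM of 9 members and DG-like nuclei the lowest of the 4 neuronal classes for all 10. This order is of the classes from clusters. With classes from marker UMIs, 9 members passed the low-count filter in DG and 3 in CA2/3, against 5 and 10 here. Levels in those classes were not compared. Homer1, a scaffold of the postsynaptic density, had 273 ± 90.6 CPM in CA1-like nuclei (SD, n = 8 pools), 169 ± 36.5 in CA2/3, 132 ± 20.1 in INH and 98.6 ± 22.3 in DG-like nuclei. Nr4a1 had 65.1 ± 13.4 CPM in CA1, 38.3 ± 5.33 in CA2/3, 37.2 ± 7.70 in INH and 8.14 ± 2.12 in DG-like nuclei. Arc, which organizes AMPA receptor endocytosis, had 30.5 ± 14.3 CPM in CA1, 15.5 ± 5.82 in CA2/3, 7.01 ± 2.36 in INH and 2.60 ± 1.90 in DG-like nuclei. In the oligodendrocyte-like background the mean of Arc was 9.50 ± 5.54 CPM, above its INH and DG means. Nr4a3 broke the order of the neuronal classes, with 89.0 ± 27.4 CPM in CA2/3 and 88.5 ± 31.9 in CA1-like nuclei. Each class was set against the next lower one by an exact paired permutation test (two-sided, 8 pools, smallest possible p = 0.0078125), and 17 of 30 neighbours differed at an adjusted p under 0.05. CA1 exceeded CA2/3 for Arc by 0.89 log2 units (exact permutation, adjusted p = 0.0156, higher in 8 of 8 pools) and for Egr1 by 1.23 (exact permutation, adjusted p = 0.0156, 8 of 8 pools). Not distinguished were Nr4a3 in CA2/3 and CA1 (0.04 log2 units, exact permutation adjusted p = 0.622), Nr4a1 in CA2/3 and INH (0.06, adjusted p = 0.727) and Npas4 in CA2/3 and INH (0.35, adjusted p = 0.234). For Fosb no neighbouring classes differed beyond the spread of the pools.

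**Figure D1:**
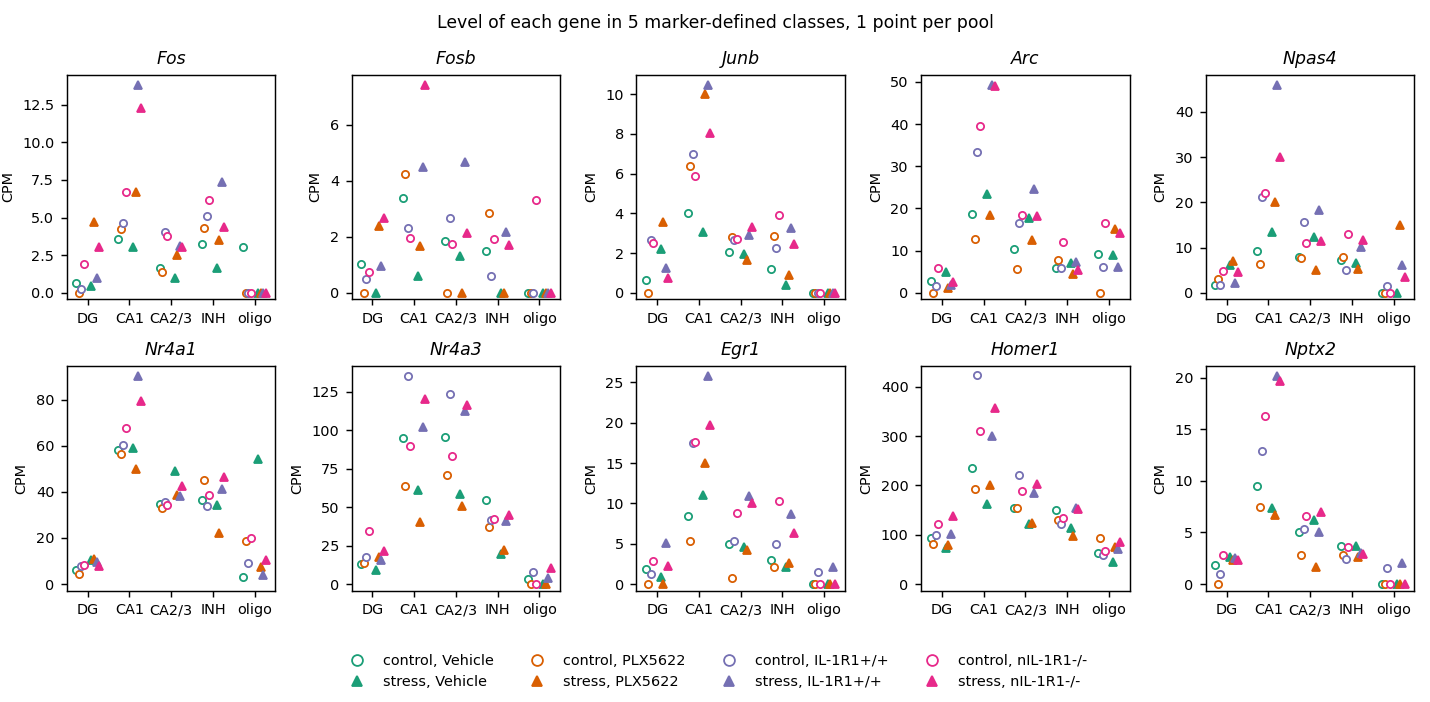
Level of each of the 10 members by cell class, in CPM on a linear axis of its own, with a point for each of the 8 pools (open circles control, triangles stress). By mean, CA1-like nuclei are highest for 9 members and DG-like nuclei lowest of the neurons for all 10, while Nr4a3 is level in CA2/3 and CA1.

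Levels of different genes were compared per kilobase of gene span in CA1-like nuclei. Arc was highest with 8.76 ± 4.11 CPM per kb (SD, n = 8 pools), followed by Npas4 with 3.53 ± 2.11 and Nr4a1 with 3.15 ± 0.648. Fosb was lowest with 0.443 ± 0.290. This order depends on the length used. Per kilobase of exon, Homer1 led with 22.2 ± 7.36 CPM per kb and Nr4a3 followed with 14.8 ± 5.32, ahead of Arc at 8.76.

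In DG-like nuclei Arc and Nr4a1 were not clearly above the oligodendrocyte-like background. Free RNA itself was not measured. Over all pools, 0.743% of DG-like nuclei had an Arc UMI, below the 1.13% of oligodendrocyte-like nuclei, which should lack Arc transcription. An Nr4a1 UMI was found in 1.85% of DG-like and 1.18% of oligodendrocyte-like nuclei, but after thinning every nucleus to 500 UMIs the mean share was 0.410% in DG-like against 0.978% in oligodendrocyte-like nuclei. That thinned Nr4a1 share ran from 0 to 0.932% over the pools in DG-like and from 0 to 3.85% in oligodendrocyte-like nuclei. Arc and Nr4a1 are therefore read as not distinguished from background. The DG-like nuclei were the deeper class, with pool medians of 812 to 3481 UMIs against 396 to 1626.5. Nr4a3 was above this background, with 3.81% of DG-like and 0.566% of oligodendrocyte-like nuclei, and 0.724% against 0.163% after thinning. Homer1 had 19.5% against 7.21%, but 4.54% against 3.79% after thinning, and mean levels of 98.6 and 70.0 CPM. Npas4 had 0.812% against 0.360%, but 0.190% against 0.124% after thinning, and mean levels of 3.91 and 3.28 CPM. Its oligodendrocyte-like level rested on 7 UMIs in 4 of 8 pools (SD 5.24 CPM), and the medians were 3.77 CPM in DG-like and 0.753 in oligodendrocyte-like nuclei. By mean level and thinned share Homer1 and Npas4 lay near background, but the background of Npas4 was poorly measured. With all UMIs, shares of scarcer members were also higher in DG-like nuclei, the deeper class. Egr1 had 0.583% against 0.103%, Nptx2 0.503% against 0.103%, and Junb 0.492% against 0 of 1943 nuclei, which allows up to 0.154%. These rest on 57, 54 and 45 DG-like and on 2, 2 and 0 oligodendrocyte-like UMIs. After thinning their mean shares were 0.0865%, 0.0487% and 0.159% in DG-like and 0% in oligodendrocyte-like nuclei. With so few UMIs these members are not read as above background. A Fos UMI was in 22 of 8744 DG-like nuclei (0.252%), and the DG-like UMIs of Fos numbered, control before stress, 3 and 1 with vehicle, 0 and 4 with PLX5622, 1 and 3 in IL-1R1+/+, and 13 and 8 in nIL-1R1-/- pools. In the same order these were 0.624 and 0.439, 0 and 4.74, 0.244 and 0.953, and 1.93 and 3.05 CPM. Per UMI sequenced, Fos in the nIL-1R1-/- pair was thus higher with stress, but no direction is settled. Its log2 ratio was 0.66 with a counting interval of -0.82 to 2.04, which includes 0. In DG-like nuclei Fos, Fosb, Junb, Egr1 and Nptx2 did not pass the filter on low counts and were not tested for stress. Egr1 had 5 and 16 UMIs in the control and stress pools of IL-1R1+/+ (1.22 and 5.08 CPM), a log2 ratio of 2.06 with a counting interval of 0.55 to 3.86. Its other pools, control first, had 9 and 2 UMIs with vehicle (1.87 and 0.878 CPM), 0 and 0 with PLX5622, and 19 and 6 in nIL-1R1-/- (2.82 and 2.28 CPM). The IL-1R1+/+ direction was thus not shared, but counting intervals of the vehicle and nIL-1R1-/- ratios included 0.

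The main question was whether stress changed the members 14 h after RSD. With edgeR's quasi-likelihood test and Benjamini-Hochberg adjustment over all genes, 0 of 5 tested members were called in DG-like nuclei, 0 of 10 in CA1, 0 of 10 in CA2/3 and 0 of 9 in INH. Over all genes, the same rule called 0.0844% in DG, 0.0942% in CA1, 0.467% in CA2/3 and 0.088% in INH. DESeq2 also called 0 members in each class. At an unadjusted p under 0.05 stood 1 of 5 members in DG, 3 of 10 in CA1, 2 of 10 in CA2/3 and 1 of 9 in INH, while 10.8%, 13.5%, 17.1% and 9.45% of all genes did. The log2 fold change (stress over control) was positive for 8 of 10 members in CA1 and 7 of 10 in CA2/3, but for 2 of 5 in DG and 1 of 9 in INH. The members' median was 0.38 in CA1, 0.14 in CA2/3, -0.04 in DG and -0.08 in INH, beside medians of 0.01, 0.01, 0.00 and 0.00 over all genes.

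**Figure D2:**
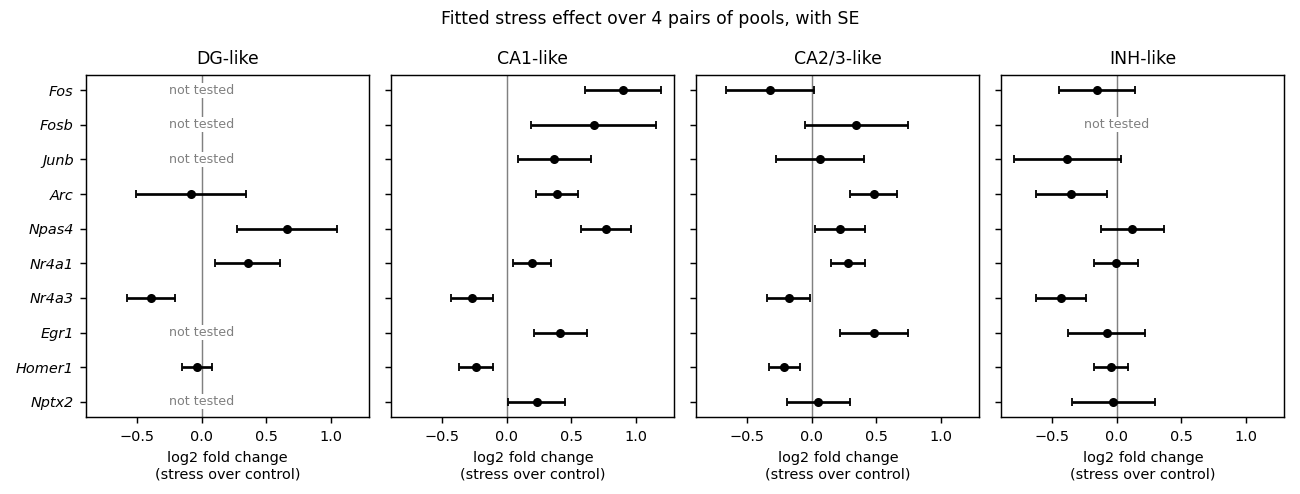
Log2 fold change of each tested member, stress over control, in DG-, CA1-, CA2/3- and INH-like nuclei, with bars of 1 SE from the fit over 4 pairs of pools. No member reached an adjusted p of 0.05, and 8 of 10 lie above 0 in CA1 but 1 of 9 in INH.

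In CA1-like nuclei, Npas4, which sets inhibitory input after activity, came nearest to a call. Control and stress pools held 9.32 and 13.5 CPM with vehicle, 6.38 and 20.05 with PLX5622, 21.1 and 45.9 in IL-1R1+/+, and 22.2 and 29.99 in nIL-1R1-/- mice. The stress pool was the higher in all 4 pairs, although control and stress pools overlapped. The log2 fold change was 0.77 (SE 0.19, edgeR adjusted p = 0.0903). Adjusted p ranged from 0.00555 to 0.947 over 17 alternatives. The counts are small, with 6 UMIs in Control-PLX5622 and 159 in Con-nIL-1R1-/-, and counting intervals of the ratio excluded 0 in 3 of the pairs, the vehicle pair being the exception.

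Fos, the classical marker of activated neurons, had 3.60 and 3.07 CPM in the control and stress pools with vehicle, 4.25 and 6.68 with PLX5622, 4.64 and 13.8 in IL-1R1+/+, and 6.69 and 12.3 in nIL-1R1-/- mice. The high values were those of the stress pools of the genotype experiment, and the vehicle pair did not share the direction. The log2 fold change was 0.90 (SE 0.30, edgeR adjusted p = 0.174). Over 15 alternatives adjusted p ranged from 0.00772 to 0.610.

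Arc had 18.6 and 23.4 CPM in the vehicle pair, 12.8 and 18.4 with PLX5622, 33.3 and 49.3 in IL-1R1+/+, and 39.6 and 49.0 in nIL-1R1-/-, control first. It was higher with stress in all 4 pairs (log2 fold change 0.39, SE 0.16, edgeR adjusted p = 0.284). Egr1 was at 8.47 and 11.1 CPM in the vehicle pair, 5.31 and 15.0 in the PLX5622 pair, 17.5 and 25.8 in the IL-1R1+/+ pair and 17.6 and 19.7 in the nIL-1R1-/- pair, control first. It too was higher with stress in all 4 pairs (0.41, SE 0.21, edgeR adjusted p = 0.386). For both genes the 2 experiments differed more in level than stress and control did.

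**Figure D3:**
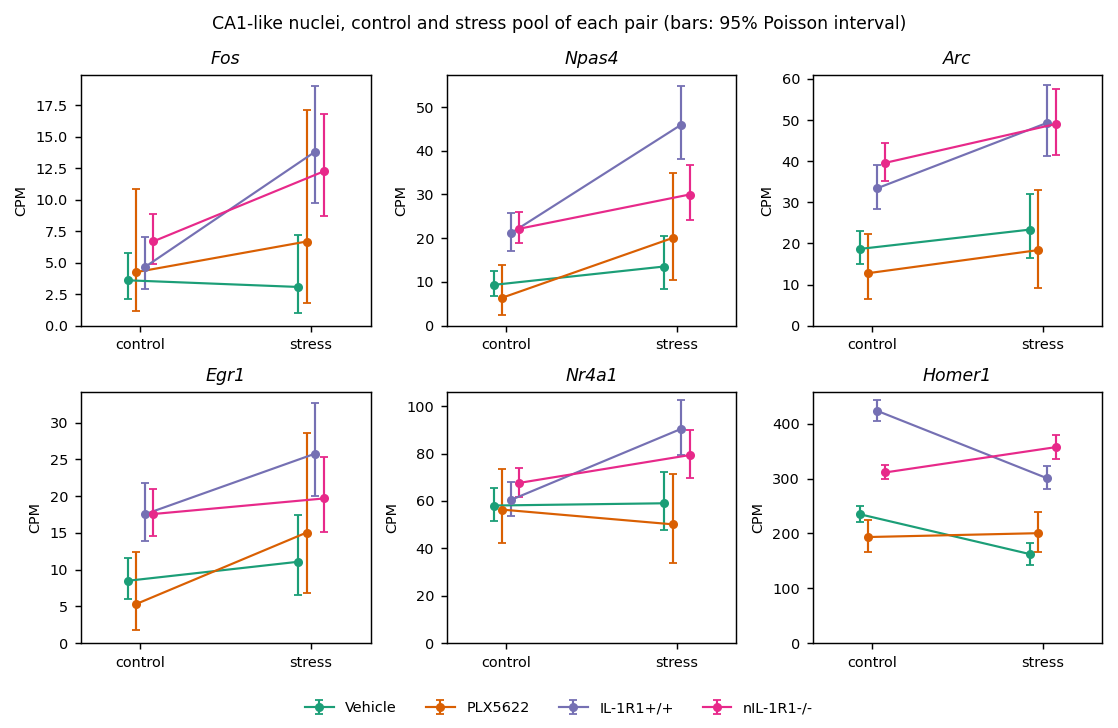
CPM of 6 members in CA1-like nuclei in the 4 pairs of pools, with a line from each control pool to its stress pool and counting intervals of 95%. The lines of Npas4, Arc and Egr1 slope up in all 4 pairs, and those of Fos in 3.

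The other CA1 members were less regular. Fosb had a log2 fold change of 0.67 (SE 0.49) and Junb of 0.37 (SE 0.28), on 82 and 164 UMIs over all pools. Nr4a1 had 0.20 (SE 0.15) and Nptx2, a pentraxin that clusters AMPA receptors, 0.23 (SE 0.22). None of these passed (edgeR adjusted p = 0.582, 0.616, 0.595 and 0.702). Homer1 was at 235 and 162 CPM in the vehicle pair, 193 and 200.5 with PLX5622, 424 and 301 in IL-1R1+/+ and 311 and 357 in nIL-1R1-/-, control first. Its log2 fold change was -0.24 (SE 0.13, edgeR adjusted p = 0.450). Counting intervals of its ratio lay below 0 in the vehicle and IL-1R1+/+ pairs and above 0 in the nIL-1R1-/- pair. The number of the 10 members with the higher CPM in the stress pool was 4 in the vehicle pair, 6 with PLX5622, 8 in IL-1R1+/+ and 10 in nIL-1R1-/-.

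Other values moved with stress in the CA1-like class. The summed CA1 markers were lower in each stress pool, at 936 CPM in Control-Vehicle against 749 in Stress-Vehicle, 920 against 745 with PLX5622, 1190 against 922 in IL-1R1+/+ and 1156 against 959 in nIL-1R1-/-. Summed subicular and cortical markers were lower with stress in the diet experiment (1038 against 712, and 1177 against 1072) and higher in the genotype experiment (813 against 1246, and 1076 against 1488). Median UMIs per CA1-like nucleus were 2758 against 1545 in the vehicle pair, 946 against 1048 with PLX5622, 3564 against 3160 in IL-1R1+/+ and 4861 against 3241 in nIL-1R1-/-. Their part in the values of Fos, Npas4, Arc and Egr1 was not tested.

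In CA2/3-like nuclei, Arc and Nr4a1 had unadjusted p-values under 0.05. Nr4a1 was at 34.6 CPM in Control-Vehicle, 33.0 in Control-PLX5622, 35.8 in Con-IL-1R1+/+ and 34.2 in Con-nIL-1R1-/-. With stress it was at 49.0 on vehicle, 38.5 on PLX5622, 38.4 with the receptor and 42.7 without it. Of 40 pairings of a member and a class, this was the 1 in which control and stress pools did not overlap. Over all tested genes the pools did not overlap for 3.65% in DG, 4.4% in CA1, 5.71% in CA2/3 and 3.91% in INH. The fit of Nr4a1 gave a log2 fold change of 0.28 (SE 0.13, edgeR adjusted p = 0.286). Arc was at 10.4 and 17.9 CPM in the vehicle pair, 5.62 and 12.6 with PLX5622, 16.6 and 24.6 in IL-1R1+/+ and 18.4 and 18.2 in nIL-1R1-/-, control first. It was higher with stress in 3 pairs and level in the nIL-1R1-/- pair (0.48, SE 0.18, edgeR adjusted p = 0.197). Homer1 was at 155 and 123 CPM with vehicle, 154 and 123 with PLX5622, 222 and 184 in IL-1R1+/+, and 189 and 204 in nIL-1R1-/- (control first, log2 fold change -0.21, SE 0.12, edgeR adjusted p = 0.384). It was lower with stress in 3 pairs, each with a counting interval below 0. Fos, which had the largest positive fold change in CA1, was at -0.33 (SE 0.34) in CA2/3. Whether the classes differ in their stress effect was not tested.

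The 5 members tested in DG-like nuclei had log2 fold changes in both directions. Npas4 was at 1.66 and 6.15 CPM in the vehicle pair, 2.98 and 7.10 with PLX5622, 1.70 and 2.22 in IL-1R1+/+ and 4.90 and 4.57 in nIL-1R1-/-, control first, on 2 to 33 UMIs a pool. Its log2 fold change was 0.66 (SE 0.39, edgeR adjusted p = 0.563). Nr4a1 had 0.36 (SE 0.25, adjusted p = 0.649) and Arc -0.08 (SE 0.43, adjusted p = 0.968), neither of them distinguished from background above. Homer1, with 73.3 to 138 CPM, had -0.04 (SE 0.12, edgeR adjusted p = 0.943). Homer1 also lay near background, and so did Npas4 by mean level, with a poorly measured background, as given above.

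Nr4a3 was the DG member with the smallest p. Its control and stress levels were 13.3 and 9.22 CPM with vehicle, 13.4 and 17.8 with PLX5622, 17.8 and 15.9 in IL-1R1+/+, and 34.7 and 21.7 in nIL-1R1-/-. The stress pool was lower in 3 pairs and the Con-nIL-1R1-/- pool, the deepest, was the highest (log2 fold change -0.39, SE 0.18, edgeR adjusted p = 0.446). Of the 234 UMIs of Nr4a3 in that pool, 142 came from sublibrary 4, where it stood at 55.5 CPM against 17.5 to 28.1 in the other 3 sublibraries. Without sublibrary 4 the nIL-1R1-/- pair had 22.0 CPM in control and 27.7 in stress and turned direction, and the fold change over the pairs was 0.06. Over 17 alternatives the fold change ranged from -0.66 to 0.06 and adjusted p from 0.299 to 0.988.

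In the other classes Nr4a3 was lower with stress in both diet pairs. In INH-like nuclei it was at 54.4 CPM in Control-Vehicle and 19.5 in Stress-Vehicle, and at 37.1 in Control-PLX5622 and 22.0 in Stress-PLX5622. In the genotype experiment control and stress stood at 41.7 and 40.9 with the receptor, and at 42.5 and 44.7 without it. Both genotype pairs were thus level in INH. Over the 4 pairs the INH fold change was -0.43 (SE 0.20, edgeR adjusted p = 0.502).

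Nr4a3 in CA1-like nuclei was at 95.1 and 61.5 CPM in the vehicle pair, 63.8 and 40.1 with PLX5622, 135 and 102 in IL-1R1+/+ and 90.0 and 120 in nIL-1R1-/-, control first. The CA2/3 values in the same pairs were 95.5 and 58.8, 70.9 and 51.1, 124 and 112, and 83.1 and 116. Only the nIL-1R1-/- pair was higher with stress in both classes. A fit on 1 experiment alone has few pools, and its estimate of spread leans on other genes. Fitted on the diet experiment alone, with only the vehicle and PLX5622 pairs, Nr4a3 fell with stress in INH (-1.22, SE 0.26, edgeR adjusted p = 0.00102), CA1 (-0.69, SE 0.23, adjusted p = 0.0354) and CA2/3 (-0.66, SE 0.19, adjusted p = 0.0418). In that experiment alone 1.54% of all genes were called in INH, 9.62% in CA1, 7.04% in CA2/3 and 1.75% in DG, where no member was called. In the genotype experiment alone the fold changes were 0.04 in INH, -0.01 in CA1 and 0.17 in CA2/3. In CA2/3-like nuclei the summed subicular and cortical markers were at 2555 CPM in control and 2054 in stress with vehicle, 2873 and 1944 with PLX5622, 3117 and 3312 in IL-1R1+/+, and 2730 and 2888 in nIL-1R1-/-. The summed CA2/3 markers of that class were lower with stress in all 4 pairs, with 813 against 719 in the vehicle and 856 against 672 in the PLX5622 pair. Their part in the Nr4a3 values was not tested.

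The difference of the stress effect between experiments (genotype minus diet) was itself tested. For Nr4a3 it was 1.29 in INH (SE 0.28, edgeR adjusted p = 0.150), 0.84 in CA2/3 (SE 0.24, adjusted p = 0.144) and 0.66 in CA1 (SE 0.26, adjusted p = 0.192). No member was called in this contrast, by edgeR or by DESeq2, while 0.0338% of all genes were in DG, 2.06% in CA1, 0.39% in CA2/3 and 0.022% in INH. The members at an unadjusted p under 0.05 numbered 1 of 5 in DG, 2 of 10 in CA1, 1 of 10 in CA2/3 and 3 of 9 in INH, beside 6.89%, 13.2%, 11.9% and 7.94% of all genes. Homer1 in INH-like nuclei had a difference of 0.70 (SE 0.19, edgeR adjusted p = 0.348). Its pools were at 151 and 114 CPM in the vehicle pair and 130 and 98.3 with PLX5622, but at 121 and 154 in IL-1R1+/+ and 134 and 153 in nIL-1R1-/-, control first. Summed inhibitory markers of the INH class were higher with stress in the genotype experiment (11240 against 13071 CPM in IL-1R1+/+ and 9211 against 13528 in nIL-1R1-/-), and their part in these values was not tested.

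**Figure D4:**
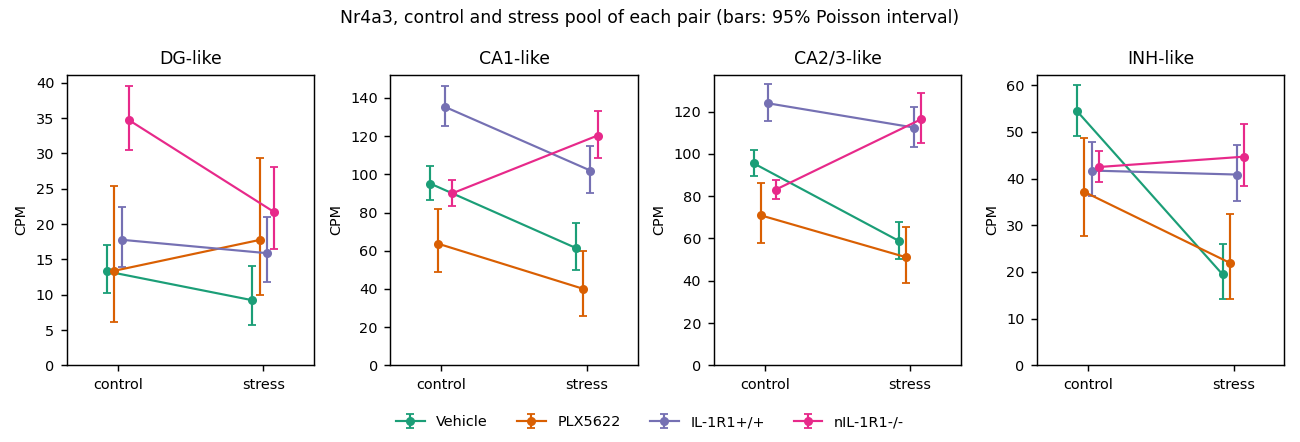
CPM of Nr4a3 in DG-, CA1-, CA2/3- and INH-like nuclei in the 4 pairs of pools, a line joining the control pool to its stress pool, with counting intervals of 95%. Outside DG the lines of both diet pairs slope down, and in the genotype experiment the INH lines are level and the nIL-1R1-/- line slopes up in CA1 and CA2/3.

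Fitted on the genotype experiment alone, with only the IL-1R1+/+ and nIL-1R1-/- pairs, 3 members rose with stress in CA1-like nuclei, beside 1.83% of all genes called. No member was called in the other classes, where 0.303% of all genes were in DG, 0.986% in CA2/3 and 1.77% in INH. These were Fos (1.15, SE 0.29, edgeR adjusted p = 0.00772), Fosb (1.49, SE 0.44, adjusted p = 0.0398) and Npas4 (0.75, SE 0.18, adjusted p = 0.00555). In the diet experiment alone Npas4 had a fold change of 0.82 (SE 0.44, edgeR adjusted p = 0.244), on 6 to 44 UMIs a pool. The difference between the experiments was -0.04 for Npas4 (SE 0.40, edgeR adjusted p = 0.980) and 1.11 for Fos (SE 0.69, adjusted p = 0.530), neither past the threshold. For Fosb the difference was 3.48 (SE 1.08, edgeR adjusted p = 0.0732), its CA1 pools being at 3.39 and 0.615 CPM in the vehicle pair, 4.25 and 1.67 with PLX5622, 2.32 and 4.48 in IL-1R1+/+ and 1.95 and 7.42 in nIL-1R1-/-, control first. Genotype and diet pools were different mice of different experiments, so the experiment cannot be told apart from strain, chow or depth.

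The contrast of nIL-1R1-/- with IL-1R1+/+ pools called no member in any class by edgeR or DESeq2, with 0.00844% of all genes called in DG and 0% in CA1, CA2/3 and INH. In DG-like nuclei 4 of 5 members stood at an unadjusted p under 0.05 and were higher in nIL-1R1-/-, while 2.11% of all genes were at such a p. Nr4a3 had a log2 difference of 0.77 (SE 0.22), Npas4 of 1.39 (SE 0.50), Arc of 1.38 (SE 0.53) and Homer1 of 0.37 (SE 0.15). All had an edgeR adjusted p of 1.00 after rounding. The Con-nIL-1R1-/- pool was the deepest of the 8, and Homer1 in its DG-like nuclei was at 168 CPM in sublibrary 4 against 86.7 to 102 in the other 3 sublibraries. Without sublibrary 4 the count became 0 of 4 tested members (Nr4a3 at 0.37, SE 0.27, Homer1 at 0.21, SE 0.18). It was also 0 of 2 after thinning, 0 of 9 with classes from marker UMIs, and 1 of 5 with DESeq2. Other alternatives kept more of them, with 4 of 5 without TMM, 5 of 10 without the low-count filter and 3 of 5 without doublet-like nuclei. Leaving out sublibrary 1, 2 or 3 gave 3 of 5, 4 of 5 and 3 of 4. Leaving out a diet pair gave 3 of 4 or 4 of 6. Summed oligodendrocyte precursor markers in DG-like nuclei were at 201 CPM in Con-nIL-1R1-/- and at 78.0 to 94.7 in the other 3 genotype pools, and summed CA2/3 markers at 604 against 484 to 539. The part of these markers in the members' values was not tested. In the other classes the members' median was -0.07 in CA1, -0.04 in CA2/3 and 0.26 in INH, and 0 of 10, 1 of 10 and 1 of 9 members were at an unadjusted p under 0.05, beside 2.43%, 1.94% and 3.37% of all genes. The contrast of PLX5622 with vehicle pools called no member by either tool. It called 0.101% of all genes in DG, 0.00857% in CA1, 0.023% in CA2/3 and 0% in INH, and 2 of 10 members in CA2/3 and none elsewhere were at an unadjusted p under 0.05, beside 6.98% of all genes in DG, 5.34% in CA1, 5.32% in CA2/3 and 5.93% in INH.

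Other genes of the activity programme were read from 3 lists. Of 25 other rapid genes, 13 were tested in CA1-like nuclei and 12 had a positive log2 fold change (median 0.39). Over all genes tested in CA1, 51.1% were positive and 0.0942% were called. Of the 13, 1 was called, and it rose. The called gene was Per1, a clock gene whose promoter responds to CREB and to glucocorticoids. It was at 54.9 CPM in Control-Vehicle, 47.8 in Control-PLX5622, 51.7 in Con-IL-1R1+/+ and 51.8 in Con-nIL-1R1-/-. With stress it was at 89.7 on vehicle, 90.2 on PLX5622, 85.5 with the receptor and 90.6 without it. The groups did not overlap, which also held for 4.4% of all genes tested in CA1. All 4 stress pools of Per1 lay close together (log2 fold change 0.75, SE 0.13, edgeR adjusted p = 0.0200). Over 17 alternatives the fold change was 0.57 to 0.80 and the adjusted p 0.000123 to 0.309, and the call was lost in 5, among them without the vehicle pair (0.0958) and without the pairing (0.309). In the other classes Per1 had 0.43 in CA2/3 (adjusted p = 0.104), 0.43 in INH (0.189) and 0.48 in DG, none of them called.

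The other rapid genes had medians of 0.14 in DG (9 tested), 0.26 in CA2/3 (15 tested) and 0.12 in INH (14 tested), with none called. By smallest p in CA1 after Per1 came Egr3 (0.46, adjusted p = 0.304), Egr4 (1.07, 0.348) and Fosl2 (0.39, 0.433). Of 20 delayed genes, which need new protein or follow the first wave, 15 were tested in DG, 17 in CA1, 17 in CA2/3 and 18 in INH and none was called for stress by edgeR. The smallest p in CA1 were those of Plk2 (0.55, adjusted p = 0.0971) and the neuropeptide precursor Vgf (0.91, 0.129). Of 16 upstream genes of CREB, SRF and MEF2, none was called in any class, with medians of -0.04 in DG, 0.03 in CA1, -0.08 in CA2/3 and 0.01 in INH. The nearest in CA1 were the kinase Camk4 (-0.53, adjusted p = 0.0894) and Srf (0.50, 0.259).

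Whether members were found in the same nuclei was read from the 8 rapid members, leaving out Homer1 and Nptx2. At least 1 of them had a UMI in 7.61% of nuclei in DG, 34.3% in CA1, 39.2% in CA2/3 and 26.0% in INH, and in 3.14% of oligodendrocyte-like nuclei. At least 2 were found in 57 nuclei in DG (0.652%), 952 in CA1 (14.2%), 997 in CA2/3 (14.7%) and 600 in INH (9.34%). These shares follow depth. In CA1 the share with at least 1 ran from 13.1% in Control-PLX5622 to 52.2% in Con-nIL-1R1-/-, the shallowest and the deepest pool. After thinning to 500 UMIs it ran from 6.73% in Stress-PLX5622 to 15.6% in Stress-nIL-1R1-/-. Over all pools the thinned shares were 1.83% in DG, 9.97% in CA1, 7.51% in CA2/3, 4.56% in INH and 1.28% in oligodendrocyte-like nuclei, so that DG lay near the background and CA1, not CA2/3, was highest.

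**Figure D5:**
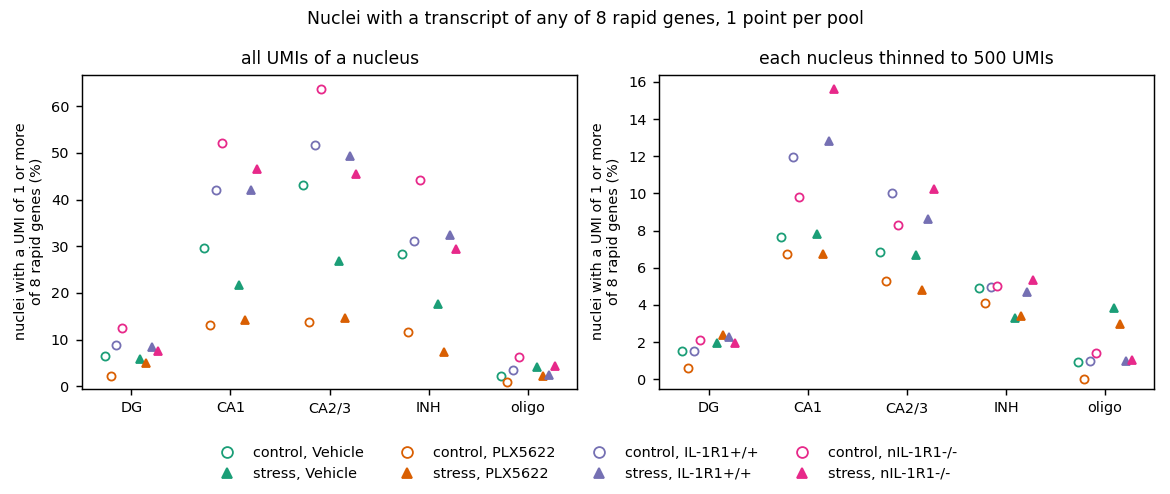
Percent of nuclei with a UMI of at least 1 of the 8 rapid members by class and pool, with all UMIs and after thinning to 500 UMIs a nucleus. With all UMIs the pools of CA1 spread from 13.1% to 52.2%, and after thinning from 6.73% to 15.6%.

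CA1-like nuclei with a Fos UMI numbered 144. Among them 42.4% had an Arc UMI, 41.7% an Npas4 UMI and 58.3% an Nr4a3 UMI, against 8.67%, 4.79% and 16.0% of the 6577 nuclei without Fos. The Fos nuclei were deeper, with a median of 5073.5 UMIs against 2503. After thinning, 23 Fos nuclei were left, of which 1 had Arc, 1 Npas4 and 3 Nr4a3, too few to compare.

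Over the 32 combinations of 4 classes and 8 pools, the genes most like the members in log2 CPM were Camkmt (r = 0.930), the nuclear receptor Nr4a2 (0.914), the adhesion protein gene Vcl (0.905), Gm31907 (0.893) and Hs6st3 (0.891), out of 5882 genes with at least 20 CPM. Each member was set against the mean of the other 9 in the same way, and r ranged from 0.676 for Fosb to 0.916 for Arc. The points share libraries and depth, and the differences between classes enter each r.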

How the data were processed

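Nuclei of 8 pools, each of 3 male mice, were barcoded together (Parse split-pool method) and sequenced in sublibraries, of which the 4 analysed here each hold nuclei of every pool. The study's methods name further sublibraries, not analysed here. A pool's condition was taken from the treatment text of the labels. The authors deposited matrices of UMI counts per gene and nucleus, aligned to mm39 per the labels, which also name Seurat 4.1.1. The release of the annotation is not given in the sources used here. Total UMIs per pool in these 4 ran from 7646288 to 58120628.

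Nuclei with over 20% mitochondrial UMIs were left out. Nuclei were clustered after scaling and log transformation of their counts (scanpy 1.11.5, 2000 variable genes, 30 components, Leiden resolution 1). The members, the genes of the other activity lists and mitochondrial genes were left out before the variable genes were chosen. Nuclei of neuronal clusters were then clustered again in the same way. Clusters were named from marker lists. Nuclei were not thinned first, so the classes were not matched for depth. Doublets were not removed in the main values, and doublet-like nuclei were left out in an alternative. The naming rule was revised 3 times after cluster tables were seen and before member values were. Counts were summed per class and pool and tested with edgeR 4.0.16 (R 4.3.3), quasi-likelihood, TMM, filterByExpr, with pair and stress as terms. The SE of a log2 fold change is its size over the root of F. DESeq2 1.42.0 was an alternative. The stress effect between experiments and the contrasts of genotype and diet came from fits to the same counts. A threshold of 0.05 on the adjusted p made a call. Class orders were tested by exact permutation on log2(CPM + 1) after the values were seen. Intervals (95%, Poisson, Clopper-Pearson or conditional binomial) cover counting error only. A count of 3 was the floor. The calculations were tested on simulated data.

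The members and the lists were chosen with earlier results of these data known, and all 10 members are given. Of the other lists, up to 4 genes of smallest p are named. Control and stress pools are paired by diet or genotype, and the deviations of same-pair pools correlated at r = 0.0797 to 0.281, those of the other pair in the same experiment at 0.0544 to 0.258, and those of different experiments at -0.267 to -0.0748, so the pairing comes from the design and not from these values. Of the gene IDs, 56017 of 56748 were found in GENCODE vM39. The promoters of the other 2 members are not reported here.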

Additional observations from a re-analysis of the deposited data

Results flagged for a closer look

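The stress effect differed between the 2 experiments, by the test of the difference itself (genotype minus diet, edgeR), for 6 genes of the other activity lists in CA1-like nuclei and 1 in CA2/3-like nuclei, and for none of the 10 members. Tested were 13 other rapid, 17 delayed and 15 upstream genes in CA1, and 15, 17 and 16 in CA2/3. Over all genes this contrast called 2.06% in CA1 and 0.39% in CA2/3. Pcsk1, the proprotein convertase that processes neuropeptides, differed by 2.01 log2 units in CA1 (SE 0.36, edgeR adjusted p = 0.000124) and by 1.96 in CA2/3 (SE 0.35, adjusted p = 0.0202). Its CA1 levels in control and stress pools were 30.5 and 12.9 CPM with vehicle, 22.3 and 18.4 with PLX5622, 19.2 and 36.6 in IL-1R1+/+, and 21.6 and 48.1 in nIL-1R1-/-. The diet pairs were thus lower and the genotype pairs higher with stress. Summed subicular and cortical markers of the CA1-like class moved the same way, control first, with 1038 and 712 CPM on vehicle, 1177 and 1072 with PLX5622, 813 and 1246 in IL-1R1+/+, and 1076 and 1488 in nIL-1R1-/-, and their part in these differences was not tested. The transcription factor gene Mef2c differed by 1.21 (SE 0.26, edgeR adjusted p = 0.00221) and Tiparp by 2.08 (SE 0.54, adjusted p = 0.0198). In the other direction were the SRF partner Elk1 at -1.39 (SE 0.37, edgeR adjusted p = 0.0241), Rasgrp1 at -0.69 (SE 0.20, adjusted p = 0.0388) and Plk2 at -0.72 (SE 0.21, adjusted p = 0.0496). Over the alternatives that gave an adjusted p, the call was kept in 11 of 13 for Pcsk1 in CA1, 8 of 12 for Pcsk1 in CA2/3, 10 of 13 for Mef2c, 6 of 12 for Tiparp, 5 of 13 for Elk1, 4 of 14 for Rasgrp1 and 2 of 14 for Plk2. Without the vehicle pair it was lost for Pcsk1 in CA1 (1.41 log2 units, edgeR adjusted p = 0.187) and in CA2/3 (1.48, adjusted p = 0.106, and 0.0775 without the IL-1R1+/+ and 0.475 without the nIL-1R1-/- pair), and without the IL-1R1+/+ pair for Mef2c (1.01, adjusted p = 0.212). Tiparp, Elk1, Rasgrp1 and Plk2 lost it without the vehicle pair and without the nIL-1R1-/- pair, with adjusted p of 0.0700 to 0.587. Among 80 groups of 4 pools of the members' CPM, 0 held a pool that stood apart from the other 3 by Dixon's criterion, where chance gives about 1 in 20.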

How the results depend on the processing

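No member was called for stress over the 4 pairs, and this count of 0 was also found with DESeq2, with library totals without TMM, after thinning, without doublet-like nuclei, without any 1 sublibrary or pair, and with classes from marker UMIs. After thinning, however, only 2 members were tested in DG, 5 in CA1, 3 in CA2/3 and 3 in INH. With classes from marker UMIs only 3 were tested in CA2/3. The members not tested could not be called, so the count of 0 does not cover them. The count became 1 in CA1 without the low-count filter (Npas4, edgeR adjusted p = 0.0342). It became 1 in CA1, CA2/3 and INH in the diet experiment alone (Nr4a3), and 3 in CA1 in the genotype experiment alone. For the difference between experiments it became 1 in CA1 with classes from marker UMIs and 1 in CA2/3 and in INH without the filter, and in INH it ranged from 0 to 1 when each replicate pair was left out. With no replicate block, 0 members were called and the genes called fell to 0 in each class, from 10 in DG, 11 in CA1, 61 in CA2/3 and 12 in INH. The block also carries the difference between the experiments, so this loss cannot show that the pairing itself mattered. DESeq2 called 9, 22, 240 and 31 genes. Reversed in DG were the log2 fold changes of Arc with DESeq2 (0.0799) and with classes from marker UMIs (0.49), Nr4a3 after thinning (0.0396) and without sublibrary 4 (0.0649, the range without each sublibrary starting at -0.656), and Homer1 without the vehicle pair (0.0684) and without sublibrary 4 (0.165, the range starting at -0.235), in the genotype experiment alone (0.12), with classes from marker UMIs (0.0416) and without doublet-like nuclei (0.0638), and the cause was not tested. Of 182 recomputed log2 fold changes of 13 named results, 123 kept direction and side of the threshold, 50 lost the call and 9 reversed. The 13 include the 5 members tested in DG for stress, which had no call to lose. All 50 losses were thus among the results that had a call. Shares of nuclei moved in 270 of 320 cases on thinning, and that of DG-like nuclei with 2 or more rapid members fell from 0.652% to 0.0950%. Thinning by itself lowers the share of nuclei with a UMI, so these moves cannot tell how a comparison depends on processing. Depth limits the members most in the PLX5622 pools.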
